A study of Mus musculus with 6 samples.

Results

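The genes described here carry the insulin and insulin-like growth factor 1 (IGF-1) signal in muscle. They are the ligand gene *Igf1*, the receptors *Insr* and *Igf1r*, the receptor substrates *Irs1* and *Irs2*, the phosphoinositide 3-kinase (PI3K) subunits *Pik3r1* and *Pik3ca*, the kinases *Akt1* and *Akt2*, and *Tbc1d4*. They were taken by gene symbol from a table of 24532 genes of the gastrocnemius (GAS) muscle of C57BL/6 mice. All 10 were found, and all 10 passed the filter on low counts, which 13801 genes passed. The study asked what *Sirt6*, which encodes a protein deacetylase of the sirtuin family, does in skeletal muscle. RNA was sequenced from 3 mice labelled WT, which carried the *Sirt6* flox/flox alleles and no Cre. RNA was also sequenced from 3 mice labelled *Sirt6* KO, whose genotype was *Myl1-Cre; Sirt6* flox/flox. Their libraries are called WT 1 to 3 and KO 1 to 3 here, after the replicate numbers in the labels. The deposited columns carry animal names instead. In replicate order these are WT1, WT4 and WT6 for WT, and KO3, KO6 and KO7 for KO. KO 1 here is thus column KO3, and KO 3 here is column KO7. The mice were 20-week-old males according to the labels and the study's methods, and each gave 1 library. *Myl1-Cre*, a Cre recombinase driven from a myosin light chain promoter, is active mainly in type II (fast) fibers, so slow fibers and the vessel, connective tissue and immune cells of the whole muscle need not have lost the gene. No WT library came from a mouse with Cre alone, so Cre and the deletion cannot be told apart.

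The library totals lay between 44845763 and 63016899 counts, and 1 count was worth between 0.0165 and 0.0212 CPM, the unit of the levels given below (counts divided by the size of the library after TMM scaling). *Myh4*, a fast myosin, was the highest gene in all 6 libraries. *Sirt6* itself went against the labels. It was at 2.77, 2.23 and 2.88 CPM in WT 1, 2 and 3, and KO 1, 2 and 3 had 7.81, 7.44 and 6.68 CPM, a log2 fold change of 1.48 (SE 0.17, edgeR adjusted p = 0.0113). A count per gene does not tell the floxed exons from the rest, so neither their loss nor an exchange of labels can be read from it. Each direction below therefore rests on the labels. Of the 13801 genes tested, edgeR's quasi-likelihood test called 1158 lower in KO and 1084 higher, where called means a Benjamini-Hochberg adjusted p under 0.05. Without KO 1 only 8 genes were called (0.0568% of those tested), and without KO 3 only 13 (0.0921%), and *Sirt6* was lost in both cases (adjusted p = 0.0606 and 0.0650). WT 3 stood apart from WT 1 and WT 2 in its slow fiber genes, which summed to 1425 CPM against 8067 and 8833, and without it 2219 genes were called lower and 2363 higher.

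Insulin and IGF-1 bind related receptor tyrosine kinases, which phosphorylate the IRS adaptor proteins. The IRS proteins recruit PI3K, whose lipid product brings AKT to the membrane, and AKT then phosphorylates TBC1D4 (AS160), which otherwise holds the glucose transporter GLUT4 inside the muscle fiber. AKT also restrains FOXO factors, and through mTOR it promotes protein synthesis, so the same route governs glucose uptake and fiber size. *Irs2* is a known target of FOXO factors and of CREB, the cAMP-responsive factor, in liver and islets.

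RefSeq gives 14 promoter windows for 9 of the 10 genes, with none for *Insr*. The 3 printed here are those of *Irs2* and *Tbc1d4*, the called genes, and of *Irs1*, the partner of *Irs2*. Each is the stretch of 250 bases before a RefSeq transcription start on GRCm38.p6, read 5′ to 3′ on the gene's own minus strand. The *Irs2* window is chr8:11008930-11009179, that of *Irs1* is chr1:82291440-82291689, and that of *Tbc1d4* is chr14:101609192-101609441. The *Tbc1d4* gene reaches to position 101609281, so part of its window lies inside the gene, downstream of its outermost start. Capitals mark matches to the motifs searched, and *Tbc1d4* had none.
*Irs2*: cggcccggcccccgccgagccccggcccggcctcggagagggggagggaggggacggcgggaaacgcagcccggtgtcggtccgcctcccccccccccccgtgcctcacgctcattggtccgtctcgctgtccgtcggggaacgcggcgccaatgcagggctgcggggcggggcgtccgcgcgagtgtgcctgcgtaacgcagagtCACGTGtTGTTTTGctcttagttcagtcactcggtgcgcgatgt
*Irs1*: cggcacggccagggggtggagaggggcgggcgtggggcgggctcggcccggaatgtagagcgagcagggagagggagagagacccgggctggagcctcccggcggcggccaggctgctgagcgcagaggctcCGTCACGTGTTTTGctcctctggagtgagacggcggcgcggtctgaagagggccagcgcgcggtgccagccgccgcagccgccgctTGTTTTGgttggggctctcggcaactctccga
*Tbc1d4*: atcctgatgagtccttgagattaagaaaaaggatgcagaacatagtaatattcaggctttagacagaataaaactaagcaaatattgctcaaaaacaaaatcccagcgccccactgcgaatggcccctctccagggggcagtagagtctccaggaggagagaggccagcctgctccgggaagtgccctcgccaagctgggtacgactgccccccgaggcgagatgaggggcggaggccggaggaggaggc

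Both strands of these windows were searched for TGACGTCA (the CREB element), TGACG (its short site), GTAAACA (a FOXO site), CAAAACA (the core of an insulin response element, which reads TGTTTTG on the other strand) and CACGTG (the E-box). The short site is part of the full CREB element. The E-box was added after the sequences had been seen. In *Irs2* the E-box lay 44 bases before the start, with TGTTTTG following at 37 bases. *Irs1* held TGTTTTG at 111 and at 32 bases before the start, an E-box at 115 that overlapped the first of these, and the short CREB site at 118, which overlapped the E-box. Among all 32851 windows in the RefSeq table, CAAAACA occurred in 5.56% and the E-box in 6.02%, and of the 9 genes only *Irs1* and *Irs2* had them. The full CREB element (1.55% of all windows) was in none of the 14 windows, the short site (17.8%) was in 4, from *Akt2*, *Irs1* and *Pik3r1*, and GTAAACA (3.17%) was in that of *Akt1*. The *Irs2* and *Irs1* windows were rich in G and C (72.8% and 72.4%) and that of *Tbc1d4* less so (54.8%).

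*Irs2* and *Tbc1d4* were lower in KO than in WT, by 6.77-fold and 1.99-fold, and no member was called higher. The other 8 were not called. Over all genes tested, 16.2% were called, 8.39% as lower and 7.85% as higher, so 2 lower calls among 10 genes is a small count to set beside this background. At an unadjusted p under 0.05 edgeR had 4 members lower (*Irs1*, *Irs2*, *Insr* and *Tbc1d4*) and 0 higher. Of all genes 35.3% had such a p, 18.1% being lower, so 4 of 10 was near the background of both directions together. DESeq2 also called those 4 lower and 0 higher, against 12.4% of the genes it gave an adjusted p that were lower. These were also the 4 members whose groups did not overlap with the WT libraries above, which held for 19.6% of all genes tested. *Akt1* alone was apart in the other direction, as were 20.3% of all genes. A fold change below 0 was seen in 9 of 10 members, against 7121 of the 13801 genes tested. The median on the log2 scale was -0.34 in the members and -0.021 over all genes tested.

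**Figure D1:**
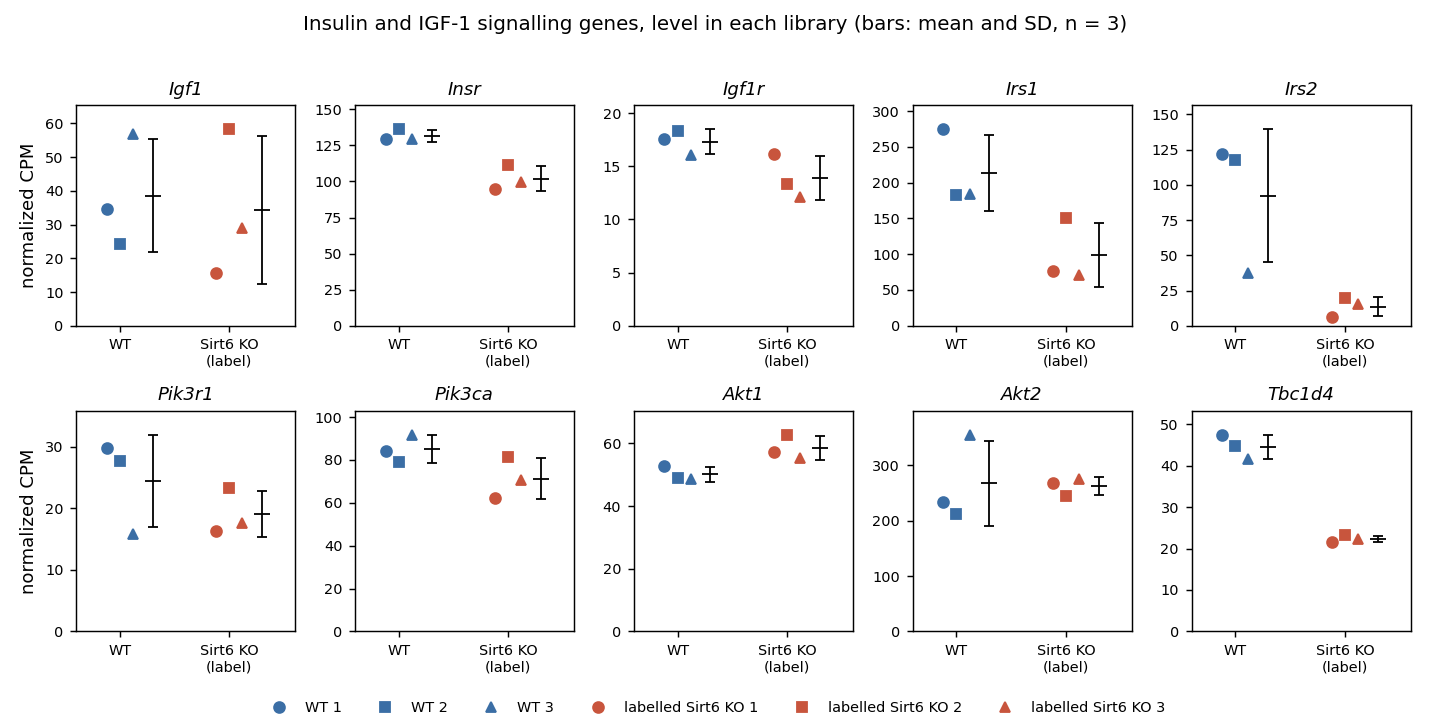
Normalized CPM (vertical axes, from 0) of the 10 genes in each library, with the 3 WT libraries in blue, the 3 labelled *Sirt6* KO in red, and the mean and SD (n = 3) beside them. All WT values of *Irs2* (37.7 to 122 CPM) and *Tbc1d4* (41.5 to 47.3) stood above all values labelled *Sirt6* KO (6.32 to 19.4 and 21.7 to 23.2), whereas *Igf1* and *Akt2* were mixed.

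*Igf1* (NCBI gene 16000), the gene of the growth factor that muscle makes for its own use, was at 34.6, 24.2 and 56.9 CPM in WT 1, 2 and 3. It was at 15.7, 58.3 and 29.0 CPM in KO 1, 2 and 3. The lowest and the highest of the 6 values were both in KO, so the groups overlapped entirely. The log2 fold change was -0.17, with a 95% interval from -1.30 to 0.96 (edgeR adjusted p = 0.830), wide enough to hold sizeable changes in both directions. In whole muscle *Igf1* RNA comes from several cell types, and for each gene here fewer cells of a type and less RNA per cell cannot be told apart.

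*Insr* (gene 16337) encodes the insulin receptor. Its level was 129, 136 and 129 CPM in WT 1, 2 and 3 and 94.8, 112 and 99.5 CPM in KO 1, 2 and 3. The WT values were close together (132 ± 4.05, SD, n = 3), all KO values lay below them (102 ± 8.66), and the gap was small. Its log2 fold change was -0.37 (SE 0.11, 95% interval -0.62 to -0.12), and edgeR's adjusted p of 0.0575 missed the threshold, so *Insr* was not called. With the trend over GC content removed it was -0.28 (adjusted p = 0.134). *Igf1r* (gene 16001), the IGF-1 receptor, was the lowest of the 10 genes per length. It was at 17.6, 18.4 and 16.1 CPM in WT and at 16.1, 13.4 and 12.1 CPM in KO. WT 3 was just below KO 1, so the groups overlapped, and the log2 fold change was -0.32 (SE 0.14, edgeR adjusted p = 0.143). The fold changes of the receptors were thus close to each other, and neither was called. The ratio of *Insr* to *Igf1r* FPKM lay between 9.42 and 10.3 in WT and between 7.51 and 10.7 in KO (exact permutation p = 1.0).

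The receptor substrates had the widest differences among the 10 genes. *Irs2* (gene 384783; chromosome 8, 10984681 to 11008929 on GRCm38) was at 122, 117 and 37.7 CPM in WT 1, 2 and 3. In KO 1, 2 and 3 it was at 6.32, 19.4 and 15.1 CPM. WT 3 lay far below the other WT values and was still above every KO value, and KO 1 was the lowest. The means were 92.3 ± 47.3 and 13.6 ± 6.66 CPM (SD, n = 3), so the coefficients of variation were 51.3% and 48.9%. This gave a log2 fold change of -2.76 (SE 0.55, 95% interval -4.04 to -1.48), with an adjusted p of 0.0214 from edgeR. Among all genes tested it was the 51st most decreased by fold change, while by p it stood only at place 792. Leaving out each library gave log2 fold changes from -3.13 to -2.41, and the call held in 2 of 6 cases. It was lost without WT 1 (adjusted p = 0.0719), WT 2 (0.0667), KO 1 (0.0707) and KO 3 (0.0869). Calls over all genes fell in these fits too, to 259 lower and 181 higher without WT 1 and to 153 and 96 without WT 2. The log2 fold change of *Irs2* was then -2.50 and -2.55. The exons of *Irs2* overlap those of *9530052E02Rik* on the opposite strand, and that gene had a mean count of only 24.2. Those of *Irs1* overlap *Gm9747* on the opposite strand, which was not among the deposited genes and so had no count.

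*Irs1* (gene 16367; chromosome 1, 82233105 to 82291439) encodes the substrate that carries most of the insulin signal toward glucose uptake in muscle. It was at 275, 182 and 184 CPM in WT and at 76.4, 151 and 70.9 CPM in KO. KO 2 was close to the lower WT values, the other 2 KO libraries were far below them, and the groups did not overlap. The log2 fold change was -1.10 (SE 0.32, 95% interval for the single gene -1.85 to -0.36), and the adjusted p of 0.0547 by edgeR missed the threshold. It passed without KO 2 (log2 fold change -1.52, adjusted p = 0.0328) and without WT 3 (-1.20, 0.0470), and with DESeq2 (0.00286). Per length, *Irs2* equalled *Irs1* in WT 1 and exceeded it in WT 2, with FPKM ratios of *Irs2* to *Irs1* of 1.01 and 1.47. In WT 3 the ratio was 0.468. In KO 1, 2 and 3 it was 0.189, 0.293 and 0.488, so KO 3 and WT 3 were alike and the groups overlapped. The log2 ratio was lower by 1.56 in KO, and the two-sided exact permutation test gave p = 0.2 (0.8 adjusted over the 4 ratios tested), where 3 libraries against 3 allow no p under 0.1. A larger drop of *Irs2* than of *Irs1* is therefore not shown by these libraries.

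**Figure D2:**
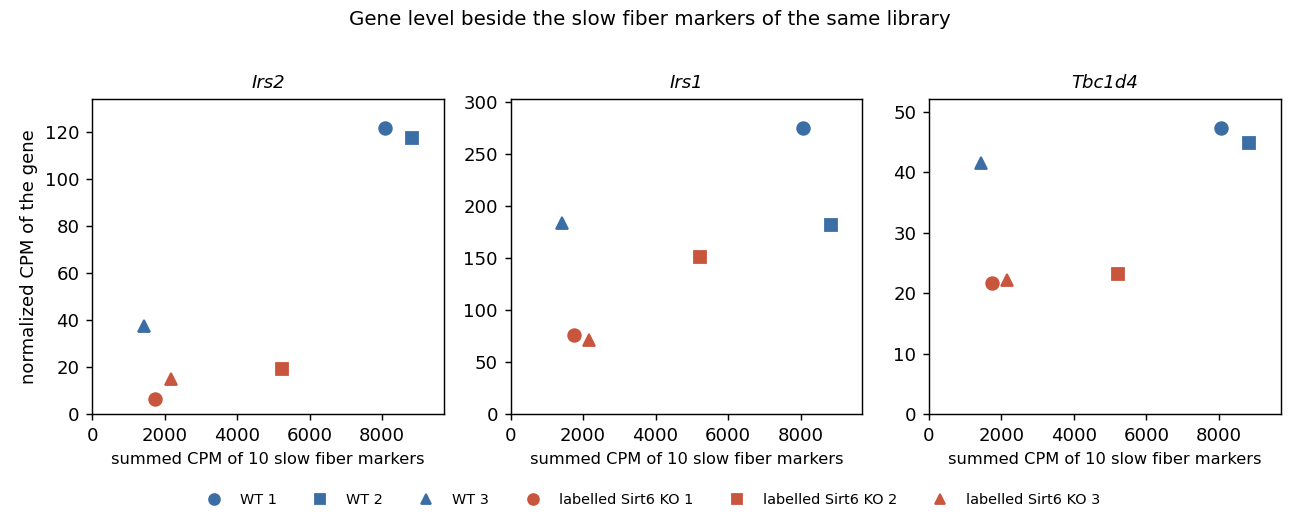
Normalized CPM of *Irs2*, *Irs1* and *Tbc1d4* (vertical axes, from 0) against the summed CPM of 10 slow fiber marker genes (horizontal axes) in each of the 6 libraries. WT 3 (1425 CPM of slow markers) was the lowest library on the horizontal axis and KO 2 (5227 CPM) lay between it and the other WT libraries, and of the 3 genes *Tbc1d4* alone kept a narrow level in each group across that axis.

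Levels of slow fiber markers differed between libraries of the same group, in part in the order of *Irs2* and *Irs1*. The 10 markers, among them *Myh7*, *Tnni1* and *Myl2*, summed to 8067, 8833 and 1425 CPM in WT and to 1742, 5227 and 2166 CPM in KO. All 10 had a fold change below 0, with a median of -1.19 on the log2 scale, but edgeR called none of them (0 at an unadjusted p under 0.05, and 0 with DESeq2), since the groups overlapped. WT 3, below every KO library in slow markers, was also the lowest WT library for *Irs2* and *Pik3r1*. By smaller margins it was the lowest for *Igf1r*, *Tbc1d4*, *Insr* and *Akt1* too. KO 2, the highest KO library in slow markers, was the highest KO library for every member but *Igf1r* and *Akt2*. These places were therefore not particular to *Irs1* and *Irs2*. The fit was repeated with the mean log2 level of the slow markers as a covariate. The log2 fold change of *Irs2* was then -2.41 (edgeR adjusted p = 0.00296), that of *Irs1* was -1.06 (0.0239) and that of *Tbc1d4* was -0.97 (0.00250). *Insr* was also called lower (-0.35, 0.0235). Over all genes this fit called 1996 lower and 1959 higher, against 1158 and 1084 without the covariate. The gain in calls was thus not particular to these genes.

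*Pik3r1* (gene 18708), the regulatory subunit of PI3K that docks on IRS proteins, was at 29.8, 27.6 and 15.9 CPM in WT and at 16.3, 23.2 and 17.6 CPM in KO. WT 3 was the lowest of all 6 libraries, so the groups overlapped. The log2 fold change of -0.36 (SE 0.25, edgeR adjusted p = 0.339) moved to -0.59 (0.0371) without WT 3. *Pik3ca* (gene 18706), the catalytic subunit, was at 84.3, 78.9 and 91.8 CPM in WT and at 62.0, 81.4 and 70.6 CPM in KO. Its log2 fold change was -0.25 (95% interval -0.56 to 0.053, adjusted p = 0.209), and 1 KO library lay within the WT range. Per length there was less *Pik3r1* than *Pik3ca* in every library. The FPKM ratio was 0.458 and 0.452 in WT 1 and 2 and only 0.223 in WT 3, and it lay between 0.321 and 0.370 in KO (exact permutation p = 1.0).

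The kinase genes differed little between the groups. *Akt1* (gene 11651), which serves growth in many tissues, was at 52.9, 48.9 and 48.6 CPM in WT and at 57.4, 62.8 and 55.2 CPM in KO. All KO values were above all WT values, by a small margin, with a log2 fold change of 0.22 (SE 0.10, 95% interval -0.012 to 0.45, edgeR adjusted p = 0.159). With the GC trend removed it was -0.03, so the sign rested on the scaling. *Akt2* (gene 11652), the form that insulin-stimulated glucose uptake in muscle depends on, was at 234, 212 and 355 CPM in WT and at 268, 244 and 275 CPM in KO. WT 3 was the highest and WT 2 the lowest, and all KO values fell between them. Its log2 fold change was -0.03, with a 95% interval from -0.50 to 0.45 (edgeR adjusted p = 0.937). The FPKM ratio of *Akt2* to *Akt1* was 4.35 in WT 3 and between 2.31 and 2.97 in the other 5 libraries (exact permutation p = 0.7 between groups).

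*Tbc1d4* (gene 210789; chromosome 14, 101442360 to 101609281), at the end of the route, had the most even change. It was at 47.3, 44.9 and 41.5 CPM in WT 1, 2 and 3 and at 21.7, 23.2 and 22.2 CPM in KO 1, 2 and 3. WT 3, which was low for *Irs2* and *Pik3r1*, was close to the other WT libraries here, and a wide gap separated the groups. The coefficients of variation were 6.49% in WT and 3.46% in KO. This gave a log2 fold change of -0.99 (SE 0.099, 95% interval -1.23 to -0.76), with an edgeR adjusted p of 0.0110, and by p it stood at place 15 of 13801. Leaving out each library gave log2 fold changes from -1.04 to -0.94, and 4 of 6 kept the call. It was lost without KO 1 (adjusted p = 0.0589) and without KO 3 (0.0650). The change of *Tbc1d4* was smaller in size than that of *Irs2* and its interval was narrower.

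**Figure D3:**
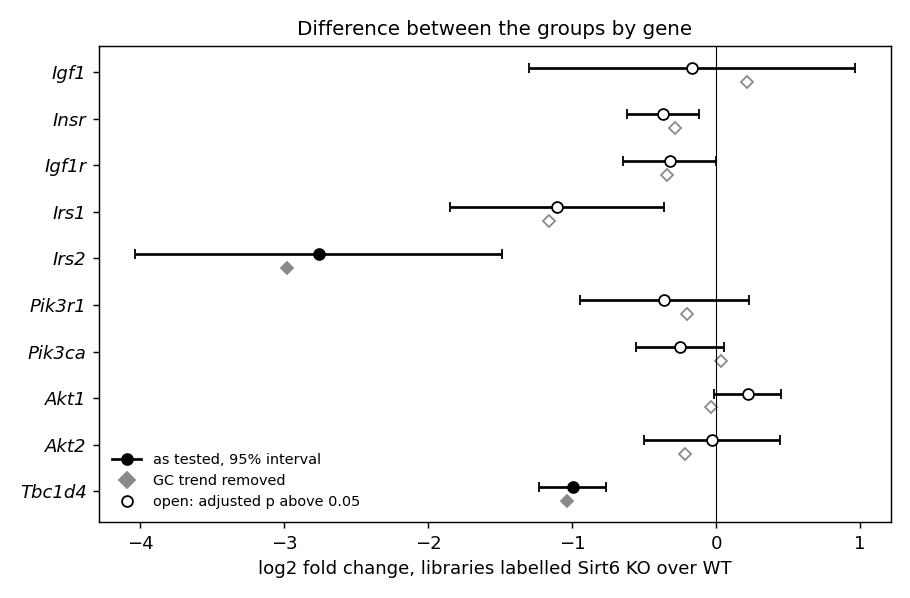
Log2 fold change of the 10 genes (horizontal axis, labelled *Sirt6* KO over WT) with 95% intervals from edgeR, and the same with the GC trend removed. *Irs2* (-2.76) and *Tbc1d4* (-0.99) were called, and the interval of *Akt2* (-0.50 to 0.45) was centered near 0.

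The fold changes of all genes rose with GC content (Spearman's rho 0.334 over 13715 genes, themselves no replicates), so the fit was repeated with that trend removed from each library. Then 6.92% of all genes were called, in either direction. *Irs2* (log2 fold change -2.98, edgeR adjusted p = 0.0327) and *Tbc1d4* (-1.03, 0.0122) were again called lower and no other member was called. The median over the 10 members was then -0.25. *Akt1*, *Pik3ca* and *Igf1* changed sign, to -0.03, 0.04 and 0.22.

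The levels of the 10 genes were ordered by deposited TPM, which allows for length. *Akt2* was the most abundant at 122 TPM (mean of 6 libraries, 106 to 152), above all the others in every library. *Akt1* (42.6 TPM, 34.9 to 47.5), *Irs1* (36.9, 15.3 to 72.1), *Irs2* (29.6, 3.30 to 72.8) and *Insr* (26.4, 21.1 to 33.1) followed with ranges that overlapped. *Akt1* was above *Irs1* in only 3 of 6 libraries, and *Irs2* was above *Insr* in only 2. *Pik3ca* (18.5 TPM) was below *Insr* in all 6 libraries and above *Tbc1d4* (10.8) in all 6. *Tbc1d4* and *Igf1* (10.7) could not be ordered, each being the higher in 3 libraries. *Pik3r1* (6.77 TPM) and *Igf1r* (2.77 TPM) were the lowest, and *Igf1r* was lowest in every library. Since *Irs1*, *Irs2* and *Tbc1d4* had means that differed widely between the groups, this order of pooled means did not hold in each group. In WT, *Irs2* (52.3 ± 29.8 TPM, SD, n = 3) and *Irs1* (51.9 ± 17.7) had means above that of *Akt1* (41.1 ± 6.29), within their spread. In KO, *Irs2* (6.80 ± 3.22 TPM) was below *Pik3ca* (16.2 ± 1.84) and level with *Tbc1d4* (6.81 ± 0.163). The span of *Irs2*, from 3.30 to 72.8 TPM, was the widest of the 10.

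**Figure D4:**
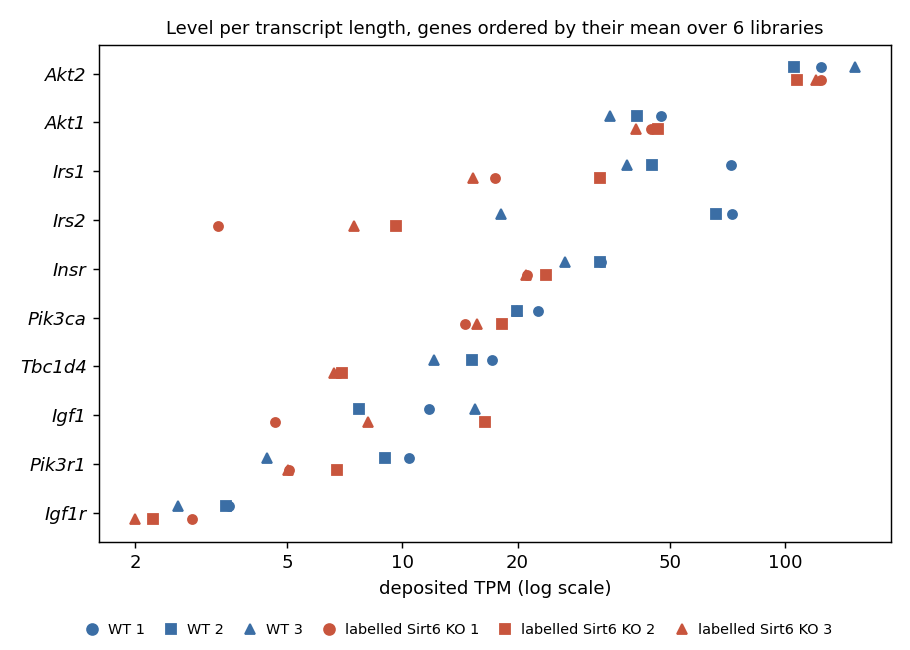
Deposited TPM (horizontal axis, log scale) of the 10 genes in each of the 6 libraries, in order of their means. The order runs from *Akt2* (122 TPM) to *Igf1r* (2.77 TPM), and the points of *Irs2* spread from 3.30 to 72.8 TPM.

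The genes whose log2 CPM was most like that of *Irs2* over the 6 libraries were *Mrrf* (Pearson's r 0.998), *Creb5* (0.997) and *Nfil3* (0.997). *Creb5* encodes a CREB family factor and *Nfil3* a basic leucine zipper repressor, and both were called lower (log2 fold change -1.19, edgeR adjusted p = 0.0292, and -1.85, 0.0242). *Mrrf*, a mitochondrial ribosome factor, followed *Irs2* in shape but hardly in size, with a log2 fold change of -0.15 (0.284). The genes most like *Tbc1d4* were *Zfp62*, *Cyb5r4* and *Hook3* (r 0.998 each), all 3 called lower with log2 fold changes from -0.91 to -0.61. These likenesses are descriptions chosen as the highest of 13801 over only 6 libraries, which also share the difference between groups.

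Of 72 other genes of the route, in 5 lists, 71 were tested (*Igfbp2* was too low), and edgeR called 7 lower and 7 higher. Over all 13801 genes tested, 8.39% were called lower and 7.85% higher. The calls in these lists were thus near the background, and the counts given for each list below are to be read beside it. As in the members, every one of these 14 calls was lost without KO 1 and without KO 3. Without WT 3 the counts were 13 lower and 13 higher, against 2219 and 2363 of all 14115 genes tested in that fit. Without KO 2 they were 4 and 4, against 442 and 431 of 14069. Without either WT 1 or WT 2 they were 2 and 0. Over all genes these fits called 259 lower and 181 higher of 13990 (without WT 1) and 153 and 96 of 14019 (without WT 2). With the GC trend removed 4 were lower and 2 higher, against 486 and 469 of 13801.

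Among ligands, IGF-binding proteins and the growth hormone receptor, 1 of 11 was lower, 1 higher and 9 were not called (median log2 fold change -0.25). *Ghr*, the receptor through which growth hormone drives *Igf1*, was at 195, 207 and 229 CPM in WT and at 142, 145 and 145 CPM in KO. The libraries of each group were close to each other and apart from the other group, with a log2 fold change of -0.55 (SE 0.11, edgeR adjusted p = 0.0223). *Igf2r*, which clears IGF-2, was higher by 0.51 (0.0204), from 97.7 ± 3.11 to 139 ± 6.36 CPM (SD, n = 3). With the GC trend removed neither was called (0.181 for *Ghr* and 0.0505 for *Igf2r*).

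Of 15 adaptors and brakes at the receptors, 1 was lower and 2 higher, with a median of 0.017. *Shc1*, the adaptor toward the RAS route, rose by 0.55 on the log2 scale (SE 0.11, edgeR adjusted p = 0.0216), and *Sh2b2* (APS) rose by 1.03 (0.0273) from a low level of 2.38 ± 0.487 to 4.87 ± 0.846 CPM. With the GC trend removed neither was called (0.0614 for *Shc1* and 0.0808 for *Sh2b2*). *Grb10*, which restrains both receptors, had a log2 fold change of 0.25 (0.352). The most negative fold change of the list was that of *Socs1*, at -3.48 (0.154), which rested on WT 1 alone, with 7.70 CPM there and at most 0.393 in the other 5 libraries. *Socs1* was named after its values were seen.

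In the PI3K list 1 of 10 was lower and 1 higher, with a median of -0.049. *Pik3r2*, another regulatory subunit, had 9.78, 10.8 and 14.4 CPM in WT and 19.9, 17.0 and 19.3 in KO. All KO values were above all WT values, and it was higher by 0.68 on the log2 scale (SE 0.17, edgeR adjusted p = 0.0359). With the GC trend removed it was 0.41 and not called (0.158).

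Of 19 genes for the mTOR complexes, AKT targets and other parts of the AKT step, 3 were lower and 1 higher, with a median of -0.099. *Rheb*, the GTPase that switches on mTOR complex 1, was at 81.7, 92.5 and 101 CPM in WT and at 48.9, 54.4 and 48.9 CPM in KO (log2 fold change -0.85, SE 0.12, edgeR adjusted p = 0.0131). *Ddit4* (REDD1), an inhibitor of the same complex, was lower by more. It had 212, 340 and 295 CPM in WT against 39.5, 116 and 20.3 in KO (-2.27, SE 0.59, 0.0420). An activator and an inhibitor of mTOR complex 1 were thus both lower, with no overlap between groups in either. *Mlst8*, a subunit of both mTOR complexes, was higher by 0.63 (edgeR adjusted p = 0.0243, and 0.0768 with the GC trend removed). *Mtor* itself had a log2 fold change of -0.21 (0.514).

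Of 16 genes for GLUT4 vesicle traffic and glucose entry, 1 was lower and 2 higher, with a median of -0.18. *Rab13* and *Rab8a*, GTPases of GLUT4 traffic downstream of TBC1D4, were both higher, by 1.17 (SE 0.22, edgeR adjusted p = 0.0185) and 0.54 (SE 0.11, 0.0225). *Rab13* had 4.11, 3.39 and 4.80 CPM in WT and 11.2, 7.24 and 9.15 in KO. *Rab8a* went from 10.9 ± 0.598 to 15.8 ± 0.754 CPM (SD, n = 3). Both were also called with the GC trend removed (0.0351 and 0.0395). The other *Rab* genes of the list, *Rab10* and *Rab14*, were not called (log2 fold change -0.36, edgeR adjusted p = 0.180, and -0.33, 0.0732). They were at higher levels, 473 ± 106 and 107 ± 7.20 CPM in WT against 369 ± 5.68 and 84.9 ± 5.24 in KO. All their KO values lay below all WT values. *Rab10* and *Rab14* were named after their values were seen. *Snap23*, a membrane fusion protein, was lower by a small amount (-0.39, 0.0494; with the GC trend removed 0.684). *Slc2a4*, the gene of GLUT4 itself, was at 654, 725 and 682 CPM in WT and at 467, 644 and 601 CPM in KO. KO 2 nearly reached the lowest WT value, and the log2 fold change was -0.27 (95% interval -0.63 to 0.098, adjusted p = 0.259). *Hk2*, the hexokinase that traps glucose in the fiber, had 676, 1487 and 784 CPM in WT against 269, 617 and 366 in KO. Its groups did not overlap, but the WT spread was wide, and the log2 fold change of -1.23 (SE 0.39) was not called (0.0707). It was called with DESeq2 (adjusted p = 0.00443) and with the slow marker covariate (0.0380).

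**Figure D5:**
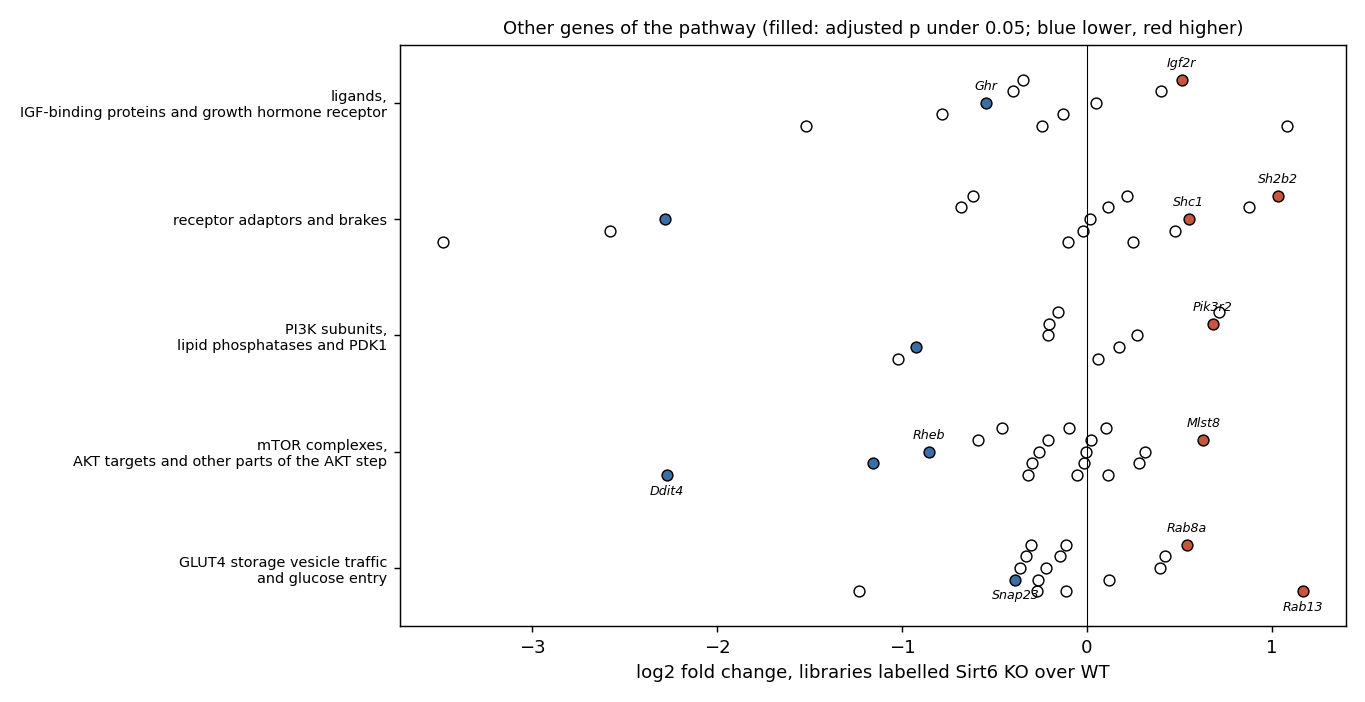
Log2 fold change (horizontal axis, labelled *Sirt6* KO over WT) of the 71 tested genes in the 5 lists, 1 point per gene, filled where edgeR's adjusted p was under 0.05. The 7 lower and 7 higher calls lay on both sides of 0 in each of the 5 lists, with *Ddit4* at -2.27 and *Rab13* at 1.17.

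Markers of fiber type and of other cell types were read beside these results. Fast fiber markers summed to between 146766 and 233958 CPM in WT and between 220465 and 247583 CPM in KO, with 0 of 10 called by edgeR (1 higher at an unadjusted p under 0.05, and 3 higher with DESeq2). Endothelial markers summed to between 208 and 427 CPM in WT and 246 and 261 in KO, macrophage markers to between 44.9 and 121 against 57.6 and 66.2, and fibroblast markers to between 631 and 1124 against 753 and 828. Adipocyte markers summed to between 143 and 284 CPM in WT and 183 and 329 in KO. For these 4 lists the ranges overlapped and edgeR called 0 genes. At an unadjusted p under 0.05, 3 endothelial markers were lower, and among fibroblast markers 2 were lower and 1 higher. DESeq2 called 2 endothelial and 2 fibroblast markers lower. *Lyz2*, *Tcf21*, *Lep* and *Adrb3* had no count in at least 1 library. Of 10 satellite cell markers, *Pax7*, *Myf5* and *Cdh15* were called higher, with log2 fold changes of 1.28, 1.33 and 0.97, and 7 were not called. A fold change below 0 was found for 4 of them, and *Chodl* (-0.49) and *Vcam1* (-0.26) had their KO values below all WT values. The sum of the list overlapped (2778 to 3567 CPM in WT and 3403 to 4421 in KO). The part of these satellite cell markers in the results was not tested.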

How the data were processed

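RNA-seq of GAS muscle covered 3 WT mice and 3 labelled *Sirt6* KO, grouped by the sample labels. Poly(A) RNA was sequenced in read pairs of 100 bases (HiSeq). The submitters' processing notes name bcl2fastq 2.20.0, FastQC 0.11.7, HISAT2 2.1.0, Bowtie2 2.3.4.1, StringTie 2.1.3b and the build mm10, while the study's reporting summary names STAR. The methods and the labels name different TruSeq kits, that of the labels being stranded, and whether counting used strand is not given in the sources used here. Reads of overlapping genes on opposite strands may therefore be mixed. The authors deposited raw counts per gene as whole numbers. The deposited FPKM are adjusted for gene length and library size, and the deposited TPM also to an equal sum per library. For the authors' own comparison, the methods describe a quantile-normalized log2 FPKM scale and a figure legend names DESeq2.

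Counts were tested with edgeR 4.0.16 (R 4.3.3) after filterByExpr and TMM, by the quasi-likelihood test of the group alone with Benjamini-Hochberg adjustment over the 13801 genes tested, with a threshold of 0.05. Levels are TMM-normalized CPM, and fold changes are those of the libraries labelled *Sirt6* KO over WT. The scripts were tested on simulated data. FPKM served for ratios between members (two-sided exact permutation tests over the libraries) and TPM for the order of levels. Alternatives were DESeq2 1.42.0, its size factors, no low-count filter, a minimum of 10 counts per library, limma 3.58.1 on the quantile-normalized FPKM (pseudocount 1 or 0.1, log2 scale), removal of a lowess trend over GC content (span 0.3, with a GC value for 99.4% of the genes tested), the replicate number as a block, both together, the slow fiber marker level as a covariate, and each library left out in turn. Coordinates and promoter sequences are from NCBI RefSeq on GRCm38.p6, which is mm10.

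The members and the lists were chosen with earlier results of these data known. The genes named are the members, *Sirt6*, the called genes of each list (at most 6 by p), *Slc2a4*, *Hk2*, *Grb10* and *Mtor*, and the 3 genes most correlated with each called member; a gene outside this rule is said to be so. The single results of 3 list genes are not reported here, though the list counts include them. The lists were the 5 of the pathway and markers of slow and fast fibers, endothelium, macrophages, fibroblasts, adipocytes and satellite cells. Each library is 1 animal, and the totals of 44845763 to 63016899 counts make counting error small beside the spread between animals for most members, though not for *Tbc1d4* in KO, where 1224 to 1406 counts and a coefficient of variation of 3.46% leave the spread near counting error.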

Additional observations from a re-analysis of the deposited data

How the results depend on the processing

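Against the 2 members called lower, DESeq2 and the slow marker covariate each gave 4, removal of the GC trend together with the replicate block gave 1 (*Tbc1d4*, the adjusted p of *Irs2* being 0.0550), and leaving out each library gave 0 to 5. No alternative called a member higher. The 7 pathway genes lower became 12 with DESeq2, 4 with the GC trend removed, 4 without the filter, 14 with the covariate, and 0 to 13 with a library left out. The 7 higher became 11, 2 with the GC trend removed, 1 with that and the block, 12 with the covariate, and 0 to 13. Over all genes, 1158 lower and 1084 higher became 1732 and 1667 (DESeq2), 486 and 469 (GC), 321 and 242 (GC with block) and 1996 and 1959 (covariate). With a library left out they became 2 to 2219 lower and 6 to 2363 higher. The deviations of same-numbered libraries from their group means had r of -0.109, 0.269 and 0.168. Those of libraries with different numbers had r between -0.348 and 0.216. Deviations within groups of 3 depend on each other, so these values cannot decide whether the numbers pair the libraries. The labels give replicate numbers and animal names, and they name no pairs. The replicate block gave 2 members lower, 7 pathway genes lower (*Snap23* lost at 0.0847, *Hk2* gained at 0.0206) and 7 higher, and 1018 and 904 over all genes. Signs reversed for *Igf1* (log2 fold change 0.22 with GC, 0.059 with GC and block, and -0.78 to 0.23 over left-out libraries), *Pik3ca* (0.035 and 0.028), *Akt1* (-0.033 with GC and -0.034 with GC and block), *Akt2* (0.045 and 0.044 with limma at the smaller and larger pseudocount, 0.0094 with the block, -0.17 to 0.24 over left-out libraries) and *Mtor* (-0.41 to 0.038 over left-out libraries). Over left-out libraries the log2 ratios lay between -0.34 and 0.037 for *Akt2* to *Akt1*, -0.13 and 0.12 for *Insr* to *Igf1r*, and -0.40 and 0.12 for *Pik3r1* to *Pik3ca*. The causes of these changes were not tested. With 3 animals a group, a change of *Igf1* within its interval of -1.30 to 0.96 was not detectable, whatever the depth.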
